A study of Rattus norvegicus with 30 samples.

Results

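DNA methylation (DNAm) in the prefrontal cortex (PFC) of rats from pair-fed (PF) pregnancies was compared with that of rats from untreated control (CON) pregnancies, in 20 of the 30 meDIP-seq libraries of the series. The libraries were chosen by their prenatal treatment label, which gave 10 PF and 10 CON libraries. All offspring were Sprague-Dawley rats at postnatal day 22. CON dams ate a pelleted control diet freely. PF dams received a liquid control diet, in which maltose-dextrin took the place of ethanol calories, in the restricted amount eaten by an alcohol-fed partner. Both diets were given from gestation day 1 to 21, so PF differed from CON in the form of the diet as well as in its amount, and the effects of form and amount cannot be told apart. Each group held 5 dams with 2 offspring each, 1 labelled female and 1 labelled male.

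DNAm is the addition of a methyl group to cytosine, in the brain mostly at CpG sites, and it is set up and remodelled before birth and during early life, when the PFC is still maturing. In meDIP-seq an antibody to methylated cytosine pulls down DNA fragments, and places where fragments pile up are called as peaks. A peak therefore marks a stretch of methylated DNA, and its height grows both with the methylation of each CpG and with the number of CpGs in the stretch. Restricted feeding in pregnancy is a metabolic challenge and a stressor, and the maternal stress response acts through glucocorticoids, whose receptor is encoded by Nr3c1. PFC tissue holds neurons and glia of many kinds, so a lower height in fewer cells and a lower height in every cell cannot be told apart.

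Between 11548314 and 15472634 filtered fragments lay behind the CON libraries (median 13600488) and between 12571392 and 16555049 behind the PF libraries (median 13892227). The labels give 5 sequencing chips, called lanes 4 to 8 here after the lane numbers in their run names, and the groups were spread over them unevenly. Lane 4 held 3 CON and 0 PF libraries, whereas lane 5 held 1 CON and 4 PF libraries. The deposited peaks of chromosomes X and Y went against the labelled sex in 14 of the 20 libraries, 7 in each group. In 14 libraries chromosome X held 0.859% to 1.15% of all peaks and chromosome Y held 41 to 87 peaks, the pattern of 1 X chromosome, and 9 of these libraries were labelled female. In the other 6, chromosome X held 2.65% to 3.14% and chromosome Y 4 to 11 peaks, and 5 of these were labelled male. The 2-X pattern was found in 2 CON and 4 PF libraries, so "labelled female" and "labelled male" are used below for the labels only, and all values are from autosomes.

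**Figure D1:**
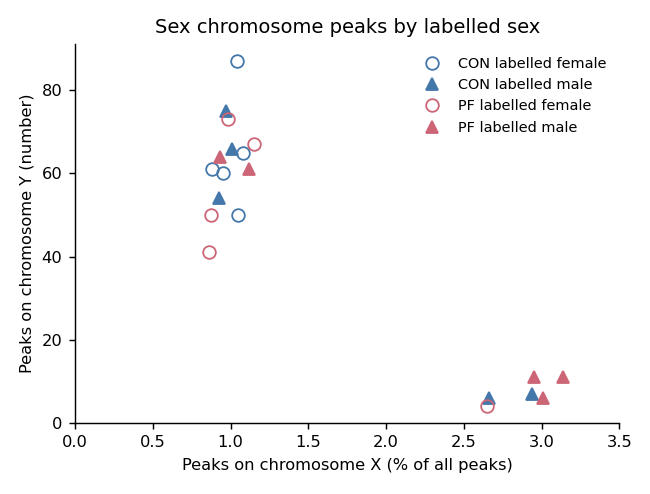
Peaks on chromosome X, as a percentage of all peaks of a library, against the number of peaks on chromosome Y, for 10 CON (blue) and 10 PF (red) libraries, with open circles for those labelled female and filled triangles for those labelled male. The libraries fall into a cluster of 14 and a cluster of 6, and each cluster holds both labels.

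To ask whether pair-feeding altered the amount of methylated DNA recovered, the autosomal peaks of each library were summarised first. PF libraries held 113946 to 184391 autosomal peaks (median 139890), and CON libraries held 117648 to 208631 (median 144412), so the ranges overlapped almost completely. Averaged by dam, PF had 143998 ± 15054 peaks and CON 151576 ± 18465 (SD, n = 5 dams each), a difference of -7578 (exact two-sided permutation test over dam means, p = 0.5, adjusted p = 0.800 over 7 measures). The autosomal length under peaks was 56.9 ± 6.77 Mb in PF and 60.2 ± 10.0 Mb in CON (n = 5 dams each, exact permutation p = 0.571, adjusted p = 0.800). The median height of a library's peaks, in pileup per 1000000 filtered fragments, was 0.814 ± 0.0204 in PF and 0.857 ± 0.0810 in CON dams (n = 5 each, exact permutation p = 0.294, adjusted p = 0.704). None of the 7 measures passed the threshold. The smallest p that 5 against 5 dams allow is 0.00794. A single measure that separated all dams could therefore not have passed the threshold adjusted over 7 measures by itself.

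The number of peaks moved with the lane. The 3 libraries of lane 8, 2 CON and 1 PF, held 181282 to 208631 peaks, above each of the other 17, and also had the longest fragments, 251 to 254 bp. The CON libraries of lane 4 held 117648 to 139146 peaks. Within the 4 lanes that held both groups, PF minus CON was -2150 peaks in lane 5, 1598 in lane 6, 1221 in lane 7 and -10566 in lane 8. With lane fitted, the difference was -1786 peaks and -0.447 Mb, against -7578 peaks and -3.30 Mb without it.

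**Figure D2:**
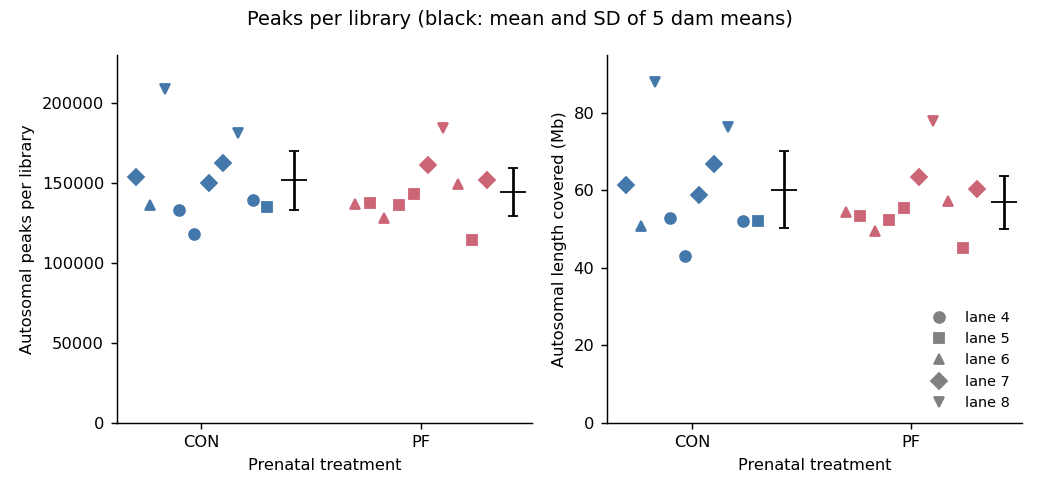
Autosomal peaks (left) and autosomal length covered by peaks (right, in Mb) in each of the 10 CON and 10 PF libraries, with the symbol giving the sequencing lane and the black bar the mean and SD of 5 dam means. The 3 libraries of lane 8 are the highest in both panels, and the groups overlap.

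No chromosome differed between PF and CON in its share of autosomal peaks beyond the spread of the dams. Chromosome 1 held 10.4% of autosomal peaks in both groups. Chromosome 18 came closest to a difference, with 3.45% in PF and 3.41% in CON (0.038 points, n = 5 dams each, exact permutation p = 0.0952, adjusted p = 0.847 over 20 chromosomes). Chromosome 12 held 2.84% in PF and 2.90% in CON (exact permutation p = 0.175, n = 5 dams each). At an adjusted p under 0.05 there were 0 chromosomes, and at an unadjusted p under 0.05 also 0. With 5 dams per group, a single chromosome could not have passed the adjusted threshold by itself.

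To compare single regions, overlapping autosomal peaks of the 20 libraries were merged into 547325 regions, and the 298978 with a called peak in at least 3 libraries (54.6%) were tested. Their length ran from 234 to 4284 bp (median 539). The median region was called in 7 libraries, 117776 regions (39.4%) had one in 3 to 5 libraries, and 15588 (5.21%) had one in all 20. The value of a library was its highest pileup in the region per 1000000 filtered fragments, called the normalized height. Where no peak was called, or its height was lower still, the value was set to a floor of 0.433, the highest of the 20 libraries' lowest called heights. The coverage of a library without a called peak is not known. Differences from such libraries can therefore be understated or overstated. Heights were fitted on the log2 scale with limma, with labelled sex and lane as terms and dam as a block, and Benjamini-Hochberg adjusted p-values were taken over all tested regions.

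No region passed an adjusted p of 0.05 between PF and CON, which is 0% of those tested (limma, smallest adjusted p = 0.767). At an unadjusted p under 0.05 there were 19156 regions, 6.41% of all tested. Of these, 12611 were lower in PF (4.22% of tested regions) and 6545 were higher (2.19%), so 65.8% of them were lower. A peak was called in CON libraries only at 3740 of the lower regions and in PF libraries only at 1580 of the higher ones. Fisher's exact test of called against not called peaks had no lane term and took each library as a separate value. It also gave 0 regions at an adjusted p under 0.05, with 1587 lower and 1195 higher at an unadjusted p under 0.05. Over all tested regions the median log2 difference was -0.030, the middle 90% lay between -0.46 and 0.37, and 55.7% of regions were below 0. The median standard error of a region was 0.227, and 507 regions differed by at least 1 on the log2 scale. In the same fit, lane was associated with 5765 regions at an adjusted p under 0.05, and labelled sex with 0. The count of 0 between PF and CON depended on how lane entered the model. When lane effects were subtracted from the heights first and lane was then left out of the fit, 2168 regions passed the adjusted threshold. That fit treats the lane effects as known. Its residual degrees of freedom were 17 in place of 13, and its standard errors leave out the overlap of lane with group. It therefore understates the uncertainty in this unbalanced design. In the 6 libraries whose X and Y peaks went with the label, fitted without lane, 17 of 129505 regions passed. Leaving out dam C41 or dam C46 gave 1 region each.

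In every sentence on a gene below, "lower" and "higher" therefore describe the PF estimate of a region that did not pass the adjusted threshold. At 0 regions did every CON library exceed every PF library, and at 0 did every PF library exceed every CON library. How many of all tested regions separate the PF dam means from the CON dam means was not counted. Where such a separation is given below, it is a description of that region only.

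Presence of a peak leaned the same way as height, but the counts of calls take no account of lane or dam. More CON than PF libraries had a called peak at 130019 regions (43.5%), more PF than CON libraries at 107329 (35.9%), and the numbers were equal at 61630 (20.6%). At 821 regions (0.275% of those tested) at least 5 CON and 0 PF libraries had a peak, and at 548 regions (0.183%) at least 5 PF and 0 CON libraries did. No region was called in 10 libraries of 1 group and 0 of the other: the most were 8 CON libraries with 0 PF, and 7 PF libraries with 0 CON.

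By chromosome, regions lower in PF outnumbered those higher in PF on all 20 autosomes, and the median log2 difference was below 0 on all 20. The share with an unadjusted p under 0.05 ran from 5.89% on chromosome 4 to 8% on chromosome 20. Chromosome 20 had 416 regions lower and 215 higher of 7888 tested. Chromosome 12 followed with 7.72%, 450 regions lower and 190 higher of 8285, and had the lowest median, -0.055. Chromosome 17 had the highest proportion of lower regions among those with an unadjusted p under 0.05, 71.3%. These are descriptions, because neighbouring regions are not replicates. They also depend on the scaling of the libraries. Over all tested regions the median was -0.030 here, -0.006 with median ratio scaling and 0.004 after quantile normalization. Medians by chromosome were not computed in those settings.

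**Figure D3:**
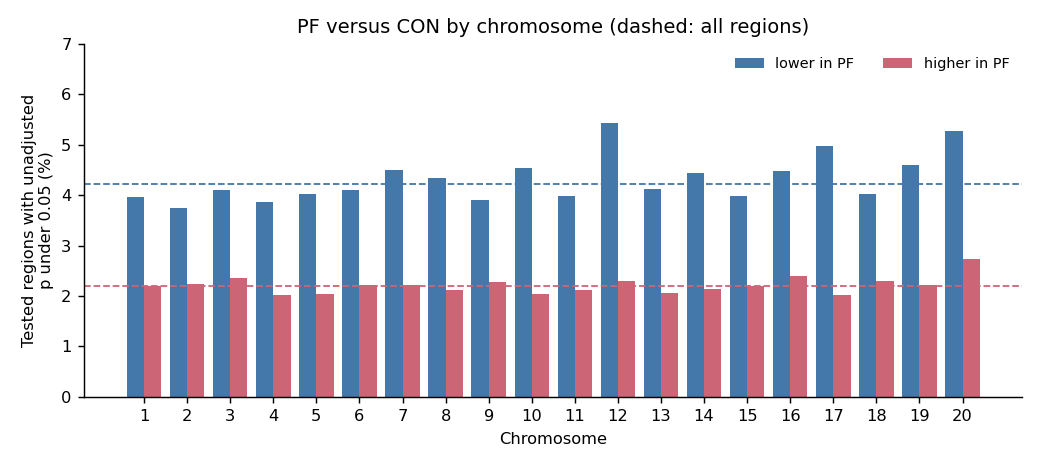
Share of tested regions with an unadjusted p under 0.05, in percent, that were lower (blue) or higher (red) in PF, for each of 20 autosomes, with dashed lines for all regions (4.22% and 2.19%). The blue bar is the taller on every chromosome.

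The share of regions with an unadjusted p under 0.05 was smaller where more libraries had a peak. It was 7.3% in regions called in 3 to 5 libraries, 6.36% in those called in 11 to 15, and 2.48% in the 15588 called in all 20. Those called in all libraries, where 0.195% of values were at the floor, had 302 lower and 84 higher, and 62.1% of them were below 0, with a median log2 difference of -0.053. The size of the fall depended on the fit, which shares an estimate of the spread among regions: fitted by themselves, the 15588 regions had 624 lower and 191 higher, or 5.23%. By length, the share ran from 7.45% in the shortest of 5 classes to 4.55% in the longest. The proportion that was lower ran the other way, from 61.8% to 77.7% of the regions with an unadjusted p under 0.05. By height, the lowest of 4 equal classes had a median of -0.003 and the highest -0.053. These properties are not independent: the median length was 437 bp in regions called in 3 to 5 libraries and 844 bp in those called in all 20.

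**Figure D4:**
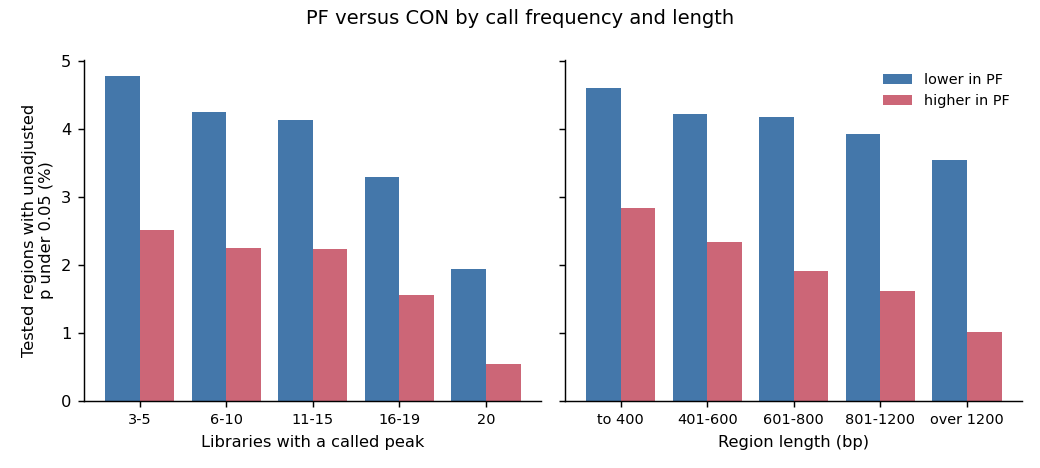
Share of tested regions with an unadjusted p under 0.05, in percent, that were lower (blue) or higher (red) in PF, by the number of libraries with a called peak (left) and by region length in bp (right). Both shares are smallest in regions called in all 20 libraries, 1.94% lower and 0.539% higher.

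Genes were assigned only to regions that overlap one in the study's tables, which give gene and feature on the rn6 assembly. These tables list 148 PF-specific regions and 949 regions shared by PF and alcohol-exposed animals, of which 101 and 762 overlapped a tested region. The study chose them on these same animals, so their direction is a description and no independent evidence. Of the 101 PF-specific regions, 29 were lower and 7 higher at an unadjusted p under 0.05, and the median log2 difference was -0.215. Of the 762 shared regions, 243 were lower and 64 higher, with a median of -0.298. Over all tested regions 4.22% were lower and 2.19% higher, with a median of -0.030, but the listed regions had been chosen for a difference between these groups, so nothing is read from the gap. None of these regions passed the adjusted threshold, and 439 of the 863 in both lists together had a called peak in at most 5 libraries. Of the 326 with a gene, from which the gene groups below are drawn, 123 were lower (37.7%) and 15 higher (4.6%), with a median of -0.379. The count of each group is to be read beside these values, and no group was tested against them. Of the 326, 63 had a peak in CON libraries only and 25 in PF libraries only. Such a region entered the test through the group in which it was high, so its direction was fixed by the filter. This held for 32 of the 123 lower and 10 of the 15 higher regions.

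Promoter regions came first, because DNAm at a start site is the form most closely tied to gene silencing. Of 11 listed regions that the study's tables place at or just upstream of a transcription start, those of Drd4, Naaladl1 and Fabp7 were lower in PF at an unadjusted p under 0.05, and that of Laptm4b was higher (0.35 ± 0.162 on the log2 scale, called in 0 CON and 4 PF libraries). The direction at Laptm4b was fixed by the filter. Among all listed regions with a gene, 37.7% were lower and 4.6% higher. Drd4 encodes the dopamine D4 receptor, which is prominent in the PFC, and Fabp7 encodes a fatty acid binding protein of radial glia and astrocytes. Fabp7 and Laptm4b were named after their values were seen. RefSeq promoters on the later assembly GRCr8 were found for 7 of the 11 genes, Drd4 and Fabp7 among them. These 2 are shown because their CpGs, in capitals, are the sites at which the antibody could bind. The windows run 5′ to 3′ on the plus strand, chr1:205825687-205825986 for Drd4 and chr20:37669356-37669655 for Fabp7.
Drd4: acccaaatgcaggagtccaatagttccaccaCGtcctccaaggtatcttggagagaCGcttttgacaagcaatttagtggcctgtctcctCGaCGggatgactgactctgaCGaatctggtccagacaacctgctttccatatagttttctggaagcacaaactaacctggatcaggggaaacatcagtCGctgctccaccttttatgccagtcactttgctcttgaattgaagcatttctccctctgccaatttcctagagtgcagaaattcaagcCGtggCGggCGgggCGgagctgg
Fabp7: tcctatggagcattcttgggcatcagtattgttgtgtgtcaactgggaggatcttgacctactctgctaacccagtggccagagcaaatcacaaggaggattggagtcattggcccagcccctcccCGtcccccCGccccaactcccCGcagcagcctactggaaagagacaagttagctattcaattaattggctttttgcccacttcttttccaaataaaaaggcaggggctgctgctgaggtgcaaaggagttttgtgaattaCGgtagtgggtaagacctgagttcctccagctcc
The Drd4 window holds 10 CpGs and the Fabp7 window 4, against a median of 7 in 33469 promoters of the same length. Of those promoters, 58.5% hold fewer CpGs than Drd4 and 30.7% hold fewer than Fabp7. The peaks lie on rn6, and whether these windows fall inside them was not tested.

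The Drd4 region (chr1:214277533-214278048 on rn6) had a called peak in 8 CON and 5 PF libraries. Its normalized height ran from 0.433 to 1.85 in CON (median 1.10) and from 0.433 to 0.878 in PF (median 0.473). The highest PF library lay below the CON median, but both groups held libraries at the floor and the dam means overlapped. The log2 difference was -0.85 ± 0.295 (SE, limma p = 0.00863, adjusted p = 0.767), and PF was lower in each of the 4 lanes with both groups. Fabp7 (chr20:40768847-40769306) was called in 6 CON libraries and 1 PF library, with medians of 0.740 and 0.433 and a log2 difference of -0.63 ± 0.242. The 1 PF library with a peak there reached 1.83, close to the CON maximum of 1.94. Naaladl1, which encodes a membrane peptidase, had its region at chr1:221469293-221469787. Heights there ran from 0.433 to 1.54 in CON (median 1.22) and from 0.433 to 0.849 in PF (median 0.604). All 5 PF dam means (0.472 to 0.827) lay below the lowest CON dam mean of 0.949, with a log2 difference of -0.91 ± 0.257 (limma, unadjusted p = 0.00179, adjusted p = 0.767).

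Calcium channel genes had listed regions within gene bodies that were mostly lower in PF. These channels turn membrane voltage into calcium entry, which drives transmitter release and activity-dependent transcription. Of 6 tested regions, 4 were lower and 0 higher at an unadjusted p under 0.05, against 37.7% and 4.6% of listed regions with a gene, and the median log2 difference was -0.66. A peak was absent from all PF libraries at 2 of the 4, which passed the filter through CON alone. Cacna1d, a pore-forming subunit of L-type channels, was called in 9 CON and 9 PF libraries at an intronic region (chr16:6329769-6330255). Its height ran from 0.433 to 2.32 in CON (median 1.58) and from 0.433 to 1.43 in PF (median 1.00), a log2 difference of -0.73 ± 0.228. The groups overlapped, although 3 PF dam means lay below the lowest CON dam mean. Cacna1g, a T-type channel subunit, had an exonic region (chr10:82183161-82183759) that was called in 6 CON and 0 PF libraries. Its CON heights reached 1.63 with a median of 0.816, and all PF libraries were set to the floor (log2 difference -1.04 ± 0.280). Cacna1b, of N-type channels, was at -0.85 ± 0.298, and the auxiliary subunit gene Cacnb2, called in 5 CON and 0 PF libraries, at -0.59 ± 0.238. Cacna1c, the other L-type subunit, had medians of 1.00 in CON and 0.638 in PF, with a log2 difference of -0.43 ± 0.226 and an unadjusted p of 0.0696 by limma.

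Potassium channel genes, whose products repolarise the membrane and set firing patterns, had 3 of 5 tested regions lower and 0 higher at an unadjusted p under 0.05. Of listed regions with a gene, 37.7% were lower and 4.6% higher. A peak was called in CON libraries only at 1 of the 3. The intronic region of Kcnab2 (chr5:169579574-169580395), an auxiliary subunit of voltage-gated channels, had a called peak in 10 CON and 4 PF libraries, 1 of the CON peaks being set to the floor for its low height. Heights ran to 2.30 in CON (median 1.22) and to 1.43 in PF (median 0.433), and the log2 difference was -0.84 ± 0.287. Of the PF dam means, 4 lay below the lowest CON dam mean. At Kcnc2 all 5 did, with a log2 difference of only -0.37 ± 0.223 (limma, unadjusted p = 0.115). Kcnq1 was at -0.48 ± 0.170 and Kcnt2, a sodium-activated channel, at -0.33 ± 0.154, and both had a peak in at most 1 PF library.

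Glutamate receptors, which carry fast excitation, had 1 of 4 tested regions lower and 0 higher. That region was in Grin1, the subunit that every NMDA receptor needs, and was called in 6 CON libraries and 1 PF library (chr3:2532387-2532836, log2 difference -0.57 ± 0.193). Of the 7 tested regions in genes of synaptic adhesion and scaffolds, 1 was lower, in Clstn2, a calsyntenin of the postsynaptic membrane (-0.33 ± 0.152). Beside the counts of both groups stands the 37.7% of listed regions with a gene that were lower. Nrxn2, a presynaptic adhesion gene, was called in 8 CON and 10 PF libraries and had a log2 difference of 0.09 ± 0.299, with an estimate of -0.74 in the labelled females and 0.63 in the labelled males.

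Axon guidance and cell adhesion genes had the most listed regions of any group, with 7 of 13 tested regions lower and 2 higher at an unadjusted p under 0.05. Of listed regions with a gene, 37.7% were lower and 4.6% higher. The median was -0.49, against -0.379 for listed regions with a gene. The filter fixed the direction of 3 of the 7, called in CON only, and of 1 of the 2, called in PF only. Reln encodes the secreted glycoprotein that positions migrating cortical neurons. Its intronic region (chr4:9693592-9694190) was called in 8 CON and 7 PF libraries, with heights to 2.37 in CON (median 1.22) and to 1.34 in PF (median 1.03). The log2 difference was -0.90 ± 0.290, and 4 of 5 PF dam means lay below the lowest CON dam mean. Ptprf, a receptor tyrosine phosphatase of growth cones and synapses, was called in 10 CON and 6 PF libraries (chr5:137059346-137059837). CON heights ran from 0.827 to 1.72 (median 1.12) and PF heights from 0.433 to 1.19 (median 0.707). All 5 PF dam means, 0.433 to 0.830, were below all 5 CON dam means, 0.915 to 1.42 (log2 difference -0.86 ± 0.253). The related phosphatase gene Ptprk was at -0.59 ± 0.206 and the ephrin receptor gene Epha4 at -0.63 ± 0.208, with a peak in 0 PF libraries each. The regions that were higher lay in Gpc5, a glypican gene, called in 1 CON and 5 PF libraries (0.35 ± 0.155), and in Ctnna2, an alpha-catenin gene, called in 0 CON and 5 PF libraries (0.47 ± 0.211; named after its values were seen).

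**Figure D5:**
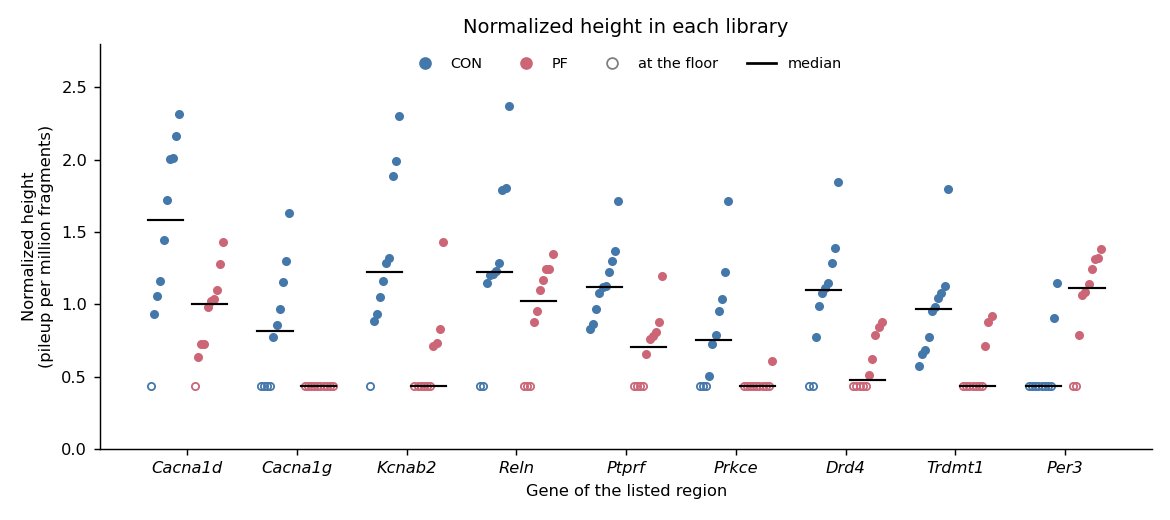
Normalized height (pileup per 1000000 filtered fragments) in each of the 10 CON (blue) and 10 PF (red) libraries at the listed regions of 9 genes, with open points for libraries set to the floor, and black lines for medians. The PF median is lower at 8 genes and higher at Per3, and the groups overlap at each of them.

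Second messenger enzymes had 3 of 10 tested regions lower and 0 higher, against 37.7% of listed regions with a gene lower, 2 of the 3 called in CON only, the smallest unadjusted p of them in Prkce, which encodes protein kinase C epsilon. Its intronic region (chr6:9870857-9871445) had a called peak in 7 CON libraries and 1 PF library. CON heights ran from 0.433 to 1.72 (median 0.756), and the 1 PF library with a peak reached 0.604. All 5 PF dam means lay below all 5 CON dam means, 0.433 to 0.518 against 0.611 to 1.07, and the log2 difference was -1.08 ± 0.243 (limma, unadjusted p = 0.000193, adjusted p = 0.767). Pde6d was at -0.55 ± 0.229. Dgki, a diacylglycerol kinase gene from the PF-specific list, was called in 3 CON and 0 PF libraries, with a log2 difference of -0.56 ± 0.258. Prkar1b, a regulatory subunit gene of protein kinase A, was called in 4 libraries of each group and was at -0.30 ± 0.233 (limma, unadjusted p = 0.211).

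Growth factor receptors had 5 of 6 tested regions lower and 0 higher, against 37.7% and 4.6% of listed regions with a gene. Their median was -0.48, against -0.379 for those listed regions. The direction of 2 of the 5, Igf1r and Flt1, was fixed by the filter. The region in Fgfr3, a fibroblast growth factor receptor (chr14:82278856-82279673), was called in 6 CON libraries and 1 PF library, at medians of 0.815 and 0.433 (log2 difference -0.88 ± 0.283). Ror2, a Wnt receptor, had medians of 0.922 in CON and 0.433 in PF (-0.70 ± 0.259). Igf1r, the receptor of insulin-like growth factor, was called in 5 CON and 0 PF libraries (-0.59 ± 0.252), and Flt1, a vascular growth factor receptor, in 3 CON and 0 PF libraries (-0.37 ± 0.147). The remaining lower region was called in 2 CON libraries and 1 PF library, with both medians at the floor.

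Nuclear receptors and steroid metabolism, the group nearest to the stress response, had 2 of 6 tested regions lower and 0 higher. Of listed regions with a gene, 37.7% were lower and 4.6% higher. The region of Ncoa1, 1 of the 2, was called in CON only. Rxra, the partner of many nuclear receptors, was at -0.82 ± 0.319, with the PF mean lower in 2 and higher in 2 of the 4 lanes with both groups. The coactivator gene Ncoa1 was at -0.39 ± 0.173. The region of Nr3c1 (chr18:32262198-32262579), in an intron of the glucocorticoid receptor gene, was called in 3 CON and 0 PF libraries. Its CON heights had a median at the floor of 0.433 and a maximum of 0.772, and the log2 difference was -0.19 ± 0.104 (limma, unadjusted p = 0.0838, adjusted p = 0.776). At 7 CON libraries and all PF libraries the value was the floor, so a difference smaller than the floor allows was not detectable at this depth. Energy and nutrient sensing genes had 1 of 5 tested regions lower, in Dld, an enzyme subunit of mitochondrial dehydrogenases (-0.54 ± 0.197, called in CON only), and 0 higher. This count too is to be read beside the 37.7% of listed regions with a gene that were lower.

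Genes of chromatin and DNA modification had 4 of 8 tested regions lower and 0 higher, with a median of -0.54. Of listed regions with a gene 37.7% were lower, and 1 of the 4, Smyd3, was called in CON only. The intronic region of Trdmt1 (chr17:80830318-80830980), a member of the DNA methyltransferase family that methylates tRNA, was called in 10 CON and 3 PF libraries. CON heights ran from 0.573 to 1.80 (median 0.965) and PF heights from 0.433 to 0.920 (median 0.433). All 5 PF dam means lay below all 5 CON dam means (log2 difference -0.73 ± 0.246). The same held at Cbx7, with a log2 difference of only -0.35 ± 0.243 (limma, unadjusted p = 0.160). Smyd3, a histone methyltransferase gene, was called in 6 CON and 0 PF libraries (-1.34 ± 0.374), Ctcfl in 6 and 1 (-0.79 ± 0.320), and the Polycomb partner gene Mtf2 in 6 and 1 (-0.50 ± 0.243). Ctcfl, whose product is a relative of the insulator protein CTCF, was lower in 1 and higher in 1 of the 4 lanes with both groups.

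Transcription factor genes had 4 of 13 tested regions lower and 0 higher, against 37.7% of listed regions with a gene lower, and 1 of the 4, Nfia, was called in CON only. They were Sox10 of the oligodendrocyte lineage (-0.80 ± 0.313), the glial factor gene Nfia (-0.59 ± 0.203), Usf1 (-0.54 ± 0.238) and 1 of 3 regions in Foxn3 (-0.47 ± 0.220). The Usf1 region was among the few called in nearly all libraries, 10 CON and 9 PF, with medians of 1.26 and 0.993. RNA editing enzymes differed in direction. Adarb1, an adenosine deaminase that edits glutamate receptor transcripts, was called in 7 CON and 2 PF libraries (-0.62 ± 0.264). Adarb2, a relative not known to edit, had 2 intronic PF-specific regions, at 0.61 ± 0.298 (limma, unadjusted p = 0.0512) and 0.16 ± 0.205. Cation-chloride cotransporters had 1 of 3 tested regions lower, in Slc12a8 (-0.51 ± 0.231), again against 37.7% of listed regions with a gene. In the group of dopamine and neuregulin genes only the Drd4 region was lower at an unadjusted p under 0.05, and Nrg2 was at 0.28 ± 0.243.

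Listed regions with a gene and a peak in at least 10 libraries were less dependent on the floor. The most negative was Serinc2, a gene for a serine incorporator (chr5:148477678-148478395), called in 9 CON and 5 PF libraries with medians of 1.24 and 0.655. Its log2 difference was -1.11 ± 0.333, with PF lower in each of the 4 lanes with both groups. Iffo2, called in 8 libraries of each group, was at -0.85 ± 0.255 with medians of 1.01 and 0.585, and Arhgef18 at -0.83 ± 0.220. LOC365985 was at -0.83 ± 0.277. Per3, a gene of the circadian clock (chr5:168102042-168102670), was the most positive. It was called in 2 CON and 8 PF libraries, with heights from 0.433 to 1.15 in CON (median 0.433) and from 0.433 to 1.38 in PF (median 1.11), and its log2 difference was 0.91 ± 0.277 (limma, unadjusted p = 0.00329, adjusted p = 0.767). Glipr1 was at 0.56 ± 0.217, Pdzk1ip1 at 0.36 ± 0.263 and St5 at 0.32 ± 0.224. Of the other genes named with a listed region, Frmd4a was at -0.75 ± 0.360, Nedd4l at -0.26 ± 0.316 and Mms22l at 0.02 ± 0.117. None of the listed regions of Pcdh9, a protocadherin gene that the study names, was among those tested.

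Over all tested regions, the 5 with the smallest p in each direction are given as a description, since they were chosen for that p. Of these 10, only the region at chr13:45336428-45337431 is in the study's lists. A region at chr8:127086990-127087310 was called in 7 CON and 0 PF libraries, with CON heights to 2.25 (median 1.18) and a log2 difference of -1.62 ± 0.295. Another at chr18:64795988-64796632 was also called in 7 and 0 (-1.08 ± 0.198), and one at chr12:31202436-31202881 in 9 and 2 (-1.38 ± 0.251). Those at chr18:5048083-5048652 and chr4:2783628-2784673 were at -1.41 ± 0.259 and -1.48 ± 0.285. The first was called in 8 CON and 2 PF libraries, the second in 4 CON and 0 PF libraries with its CON median at the floor. Where no PF library had a peak, the direction was fixed by the filter. In the other direction, chr13:45336428-45337431 was called in 7 CON and 10 PF libraries. Its heights ran from 0.433 to 0.803 in CON (median 0.685) and from 0.801 to 1.64 in PF (median 1.05), so the groups overlapped only where the highest CON library reached just above the lowest PF library, and the log2 difference was 1.08 ± 0.212. At chr18:53943899-53945436, called in 4 CON and 10 PF libraries, PF heights ran from 1.02 to 2.15 and the log2 difference was 1.32 ± 0.285. Those at chr13:96692257-96692642, chr6:33093343-33093847 and chr17:18157879-18158381 were at 1.17 ± 0.241, 1.13 ± 0.247 and 1.06 ± 0.231. The regions with the largest gap in called peaks included chr2:235524775-235526065, called in 1 CON and 10 PF libraries (0.76 ± 0.201), and chr3:147360732-147361503, called in 10 CON libraries and 1 PF library (-0.59 ± 0.215).

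The comparison was also made within each labelled sex, in a model of group by labelled sex. Among the labelled females, 1 region passed the adjusted threshold (0.000334% of those tested) and 25798 had an unadjusted p under 0.05 (8.63%). Among the labelled males there were 0 (0%) and 12390 (4.14%). The difference between them was tested directly and gave 0 regions at an adjusted p under 0.05 and 16508 at an unadjusted p under 0.05 (5.52%), with a smallest adjusted p of 0.401 by limma. The labelled females of CON and PF share lane 8 only, with 1 CON and 1 PF library, and 9 of the 10 show the pattern of 1 X chromosome.

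The region that passed lay on chromosome 15 (chr15:37459759-37460437). All 5 CON libraries labelled female had a called peak, at heights of 0.902, 1.15, 1.54, 2.09 and 2.42, and all 5 PF libraries labelled female were at the floor. The log2 difference was -2.96 in the labelled females (limma adjusted p = 0.00231). In the labelled males the CON heights were 0.433, 0.433, 1.2, 1.2 and 1.49 and the PF heights 0.433, 0.433, 0.879, 1.02 and 1.33, with a log2 difference of -0.34 (limma, unadjusted p = 0.222). The groups did not overlap in the labelled females and overlapped in the labelled males. Without the lane term the labelled female difference was -1.81 with an adjusted p of 0.783, and without dam PF27, whose labelled female is the PF library of lane 8, it was -3.01 with an adjusted p of 0.0781, so the call ended in both settings. The number of regions that passed among the labelled females was 0 without the lane term and 0 without dam PF27. Without dam C43, when CON and PF libraries labelled female shared no lane, it was 3433.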

How the data were processed

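The 20 meDIP-seq libraries were grouped by their treatment labels. Reads were aligned by the authors to the rn6 assembly (BWA), reads that were duplicates, unpaired or of low mapping quality were removed (SAMtools), and peaks were called per library, with no control, at a q-value of 0.05 (MACS2, version 2.1.4 per the file headers). The deposited signal of a peak is its pileup, not scaled for depth, and the deposited −log10 q-value was used for a stricter threshold of 0.01. Later steps of the authors start from reads not used here. Rows of 1 peak were joined, and regions, heights and fits were made as described above with limma 3.58.1 in R 4.3.3, numpy 2.4.6, pandas 2.3.3, scipy 1.17.1 and matplotlib 3.10.9. The consensus correlation within dams was 0.0165. Fits were tested on simulated data. Library totals were compared by exact permutation over dams, so offspring of 1 dam counted once. Named regions were those of genes the study names, up to 4 per gene group, and the regions with the smallest p or largest gap in called peaks. Listed regions with a gene and a peak in at least 10 libraries were also named, up to 10 in each direction by size of change. Fewer than 10 of these were higher, so every higher one was named. In addition, 2 regions were added after their values were seen, and Laptm4b, Kcnc2 and Cbx7 were named in the same way. The members, lists and tests were chosen with earlier results of these data known. A missing peak means only that coverage did not reach the calling threshold at that depth.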

Additional observations from a re-analysis of the deposited data

Results flagged for a closer look

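The library of the labelled female of dam PF27, the PF library of lane 8, stood apart from the other 9 PF libraries in 2 of 14 group and measure combinations examined, with a median peak length of 359 bp and a 90th percentile of peak height of 1.67 in pileup per 1000000 filtered fragments. Chance flags about 1 in 20 such groups. Its fragments were 254 bp long, and its 184391 autosomal peaks were the most of any PF library. The part of lane in these values was not tested apart from the library. The peaks on chromosomes X and Y, which entered no comparison, went against the labelled sex in 14 of the 20 libraries, 7 of them CON and 7 PF.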

How the results depend on the processing

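With 12611 regions lower, 6545 higher and 0 past the adjusted threshold as reported, subtracting lane effects before fitting gave 33399, 18825 and 2168, with 32384, 16020 and 1994 among the labelled females and 16070 lower and 11834 higher among the labelled males. That fit treats the lane effects as known and understates the standard errors. The 6 libraries whose X and Y peaks went with the label gave 4306, 1763 and 17. Fewer regions were tested where a peak was required in at least 10 libraries (4023 lower, 2126 higher) or in all 20 (624 lower, 191 higher). Fisher's exact test gave 1587 lower and 1195 higher. With each library's own floor, 4003 were higher and 18046 lower, so 81.8% in place of 65.8% of the regions with an unadjusted p under 0.05 were lower. This share was 58.2% after quantile normalization, 63.2% with median ratio scaling and 57.0% with uncalled peaks set to 0. The median log2 difference over all tested regions was 0.004, -0.006 and -0.047 in the same order, against -0.030 as reported. The cause of these shifts was not tested. Without the lane term the labelled females had 0 regions past the adjusted threshold, with 5040 higher, the difference between labelled sexes had 5833 higher, and the chromosome 15 region was at -1.81. After quantile normalization 9465 regions were lower in the labelled females.

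Dams were left out in turn. Regions past the adjusted threshold then numbered 0 to 1, with 8637 to 15751 lower and 5202 to 7331 higher. Among the labelled females they numbered 0 (without PF27) to 3433 (without C43), with 12322 to 26493 lower and 5991 to 9086 higher, and the chromosome 15 region was at -3.57 to -2.78. Among the labelled males they numbered 0, with 5897 to 8296 lower and 4411 to 6028 higher. For the difference between labelled sexes they numbered 0 to 3 (without C43), with 4785 to 9257 lower and 7330 to 19784 higher. The difference in autosomal peaks was -13240 (without PF27) to -2509 (without C45) and in covered length -5.98 to -0.489 Mb, with no measure past the threshold. Median peak length ran from -2.23 to 4.65 bp and fragment length from -1.12 to 3.12 bp, and both also turned without the 14 libraries that went against the label (-4.83 and -3.83 bp) and without lane 4 (-4.10 and -1.60 bp).

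Of 92 log2 differences of named regions, 89 kept their sign under every alternative run for them. Many of these regions were chosen for their difference in these data. Where only 1 group had a peak, the filter fixed the sign, so kept signs are no support. Of the 2357 values under alternatives, 43 passed the adjusted threshold where the reported value did not. Nrxn2 turned to -0.08 without the 14 libraries and -0.41 with only libraries of 1 X chromosome, and lay between -0.21 and 0.38 with dams left out. Mms22l turned to -0.05 with own floors and lay between -0.03 and 0.07 with dams left out. Nedd4l turned to 0.07 with uncalled peaks at 0 and to 0.03 with only libraries of 1 X chromosome. Chosen after seeing the data were the X and Y pattern in place of labelled sex (12539 lower, 6829 higher), only libraries of 1 X chromosome (12098 and 6260) and leaving out lane 4 (11068 and 5731), with 0 regions past the adjusted threshold in each. Fitting all 30 libraries gave 16194 lower, 7597 higher and 0 past it. No paired analysis was possible because CON and PF dams share no number in the labels. Heights under the floor, and regions with a peak in fewer than 3 libraries, were not detectable at this depth.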

Other observations

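A region at chr12:3340627-3341206 stood out by its height, from 73.7 to 156 in CON libraries (median 119) and from 69.9 to 116 in PF libraries (median 96.9), and was called in all 20. All 5 PF dam means lay below all 5 CON dam means, at a log2 difference of -0.45 ± 0.108 (limma, unadjusted p = 0.000347, adjusted p = 0.767), and the region was named because it was among the lowest p-values of the labelled females.

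Across the 107592 tested regions called in at least 10 libraries, log2 heights of 2 libraries of the same dam had a mean Pearson correlation of 0.532 (10 pairs). Libraries of the same group from other dams and lanes stood at 0.519 (63 pairs), libraries of different groups and lanes at 0.518 (85 pairs) and libraries of the same lane at 0.541 (32 pairs). These are correlations across regions, which are not independent replicates, and pairs of 1 lane include pairs within and between groups, but none of the same dam. The SD of dam means of median peak height was 0.0810 in CON and 0.0204 in PF, and that of filtered fragments 1307784 and 330677; these spreads were not tested against each other.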
